A study of Mus musculus with 6 samples.

Results

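The chaperonin genes described here are the 8 genes of the cytosolic chaperonin CCT (Tcp1, Cct2, Cct3, Cct4, Cct5, Cct6a, Cct7 and Cct8) and the 2 genes of the mitochondrial chaperonin, Hspd1 (Hsp60) and Hspe1 (Hsp10). They were chosen by gene symbol among the named probe sets of the array, and all 10 had a probe set, out of 20239 genes tested. The study measured total RNA of heart ventricles on Affymetrix Mouse Gene 1.0 ST arrays. Its mice were 3.5-week-old males on the 129/Sv background, 3 labelled Hspa4-/- and 3 labelled wild type (Hspa4+/+), with no further treatment given in the labels. Hspa4 encodes a chaperone of the Hsp110 family, which resets the nucleotide on Hsp70. The sources used here do not say which part of the gene was disrupted or whether the mice carried another allele.

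CCT, also called TRiC, is a barrel of a pair of stacked rings, each built from 8 different but related subunits. It takes up newly made proteins, actin and tubulin foremost, from Hsp70 and from the co-chaperone prefoldin, and folds them in a closed chamber driven by ATP. Hsp60 forms a similar barrel in the mitochondrial matrix, Hsp10 is its lid, and the pair folds imported matrix proteins. In heart muscle CCT serves the actin and tubulin of the cytoskeleton, and Hsp60 serves the enzymes of a tissue rich in mitochondria.

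Before the chaperonin genes can be compared, the label of 1 array has to be described. Hspa4 had log2 values of 9.74, 9.50 and 9.48 on wild-type arrays 1 to 3, and of 6.63 and 6.75 on replicates 2 and 3 of the labelled Hspa4-/- group. The array labelled Hspa4-/- replicate 1 read 9.33, close to wild type and against its label. The same array had an Xist value of 7.68, against 5.51 to 5.69 on the other 5, although all are labelled male. Of its Y-linked genes, Eif2s3y read 7.96 against 8.23 to 8.39 on the other 5, Uty 7.92 against 8.15 to 8.57 and Kdm5d 6.85 against 6.77 to 7.10. The chaperonin genes are therefore given for all 6 arrays and for the 5 arrays left without it. In limma, 0 of 20239 genes passed an adjusted p of 0.05 on 6 arrays, where 2261 had an unadjusted p under 0.05, and 89 passed on 5 arrays. All 8 ventricular cardiomyocyte markers (among them Myh6, Myl2 and Tnnt2) lay above the median gene.

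Of the 10 chaperonin genes, 0 passed the threshold of an adjusted p under 0.05 with either set of arrays. The share of all genes that passed was 0% on 6 arrays and 0.44% on 5 (limma, Benjamini-Hochberg adjustment over all genes). On 6 arrays 8 of the 10 had a negative difference, labelled Hspa4-/- minus wild type, and 2 a positive one, where 54.2% of all genes were negative. The median difference of the 10 was −0.12 on the log2 scale, beside −0.0094 over all genes. On 5 arrays 6 were negative, where 56.7% of all genes were, and the median was −0.09 beside −0.018. Without adjustment, 3 of the 10 had a p under 0.05 on 6 arrays (Cct3, Cct8 and Hspd1, all lower), and 11.2% of all genes did, 5.53% of all genes being lower. On 5 arrays 3 did (Cct3 and Cct8 lower, Cct2 higher), and 14.9% of all genes did, 6.36% of all genes being lower and 8.55% higher.

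For all 10 genes the interval of the difference stayed inside 1.5-fold in both sets, without adjustment for the number of genes. The 95% intervals of limma, each for a single gene, ran from −0.46 at the lowest to 0.35 at the highest on 6 arrays and from −0.46 to 0.41 on 5. A difference of 1.5-fold is 0.58 on this scale, and 0 of the 10 intervals reached it in either set. The SD between arrays of a group, pooled over both groups, lay between 0.087 and 0.18 for the 10 genes. In 5 of the 10 the difference was larger than that SD, as it was in 37.6% of all genes.

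**Figure D1:**
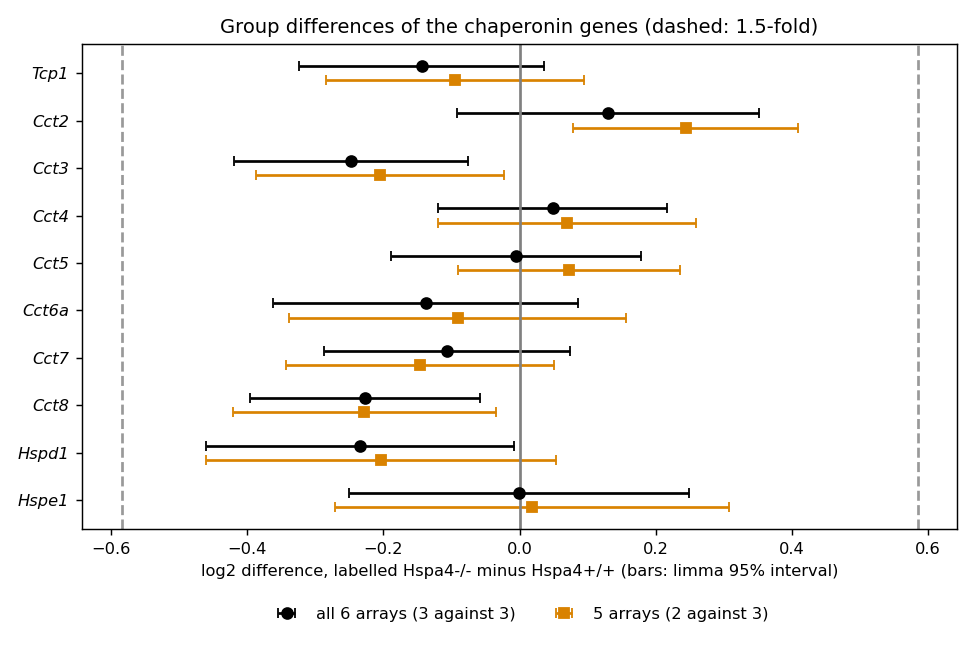
Differences of the 10 chaperonin genes in log2 units (x axis), labelled Hspa4-/- minus Hspa4+/+, with limma's 95% interval as bars. Circles are all 6 arrays and squares the 5 arrays without the array labelled Hspa4-/- replicate 1. Every bar ends inside the dashed lines, which mark 1.5-fold.

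Among the CCT subunits, Cct3 and Cct8 were the 2 whose values did not overlap between the labelled groups on 6 arrays. Non-overlap with the labelled Hspa4-/- arrays lower was seen in 9.07% of all genes on 6 arrays and 18.9% on 5. Cct3 encodes the gamma subunit of the ring. It read 7.24, 7.30 and 7.44 on the arrays labelled Hspa4-/- replicates 1 to 3 and 7.49, 7.58 and 7.65 on wild-type arrays 1 to 3. Every wild-type array lay above every array labelled Hspa4-/-, with the gap smallest between wild-type replicate 1 and the array labelled Hspa4-/- replicate 3. The means were 7.32 ± 0.10 (SD, n = 3) and 7.57 ± 0.08 (SD, n = 3), a difference of −0.25 (SE 0.08) or 1.19-fold lower, which did not pass (limma, adjusted p = 0.278). On 5 arrays the difference was −0.20 (SE 0.08; limma, adjusted p = 0.280).

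Cct8, the theta subunit, read 7.98, 7.89 and 8.06 on the arrays labelled Hspa4-/- and 8.31, 8.13 and 8.17 in wild type. The groups again did not overlap, and the lowest wild-type array was replicate 2. The means were 7.98 ± 0.08 (SD, n = 3) and 8.20 ± 0.09 (SD, n = 3), a difference of −0.23 (SE 0.08) or 1.17-fold lower (limma, adjusted p = 0.303). On 5 arrays it was −0.23 (SE 0.09; limma, adjusted p = 0.260), so Cct8 had the same size with and without the array whose Hspa4 goes against its label.

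Cct2, the beta subunit, had a difference opposite in sign to these in both sets. It read 9.43, 9.83 and 9.71 on the arrays labelled Hspa4-/- and 9.48, 9.57 and 9.53 in wild type. Labelled Hspa4-/- replicates 2 and 3 were above all wild-type arrays, while replicate 1 was below them all. On 6 arrays the difference was 0.13 (SE 0.10; limma, adjusted p = 0.703). On 5 arrays Cct2 was 1.18-fold the wild-type level (log2 difference 0.24, SE 0.07, 95% interval 0.08 to 0.41), had the smallest adjusted p of the 10 genes and did not pass (limma, adjusted p = 0.176). Its groups did not overlap on 5 arrays, as in 14.4% of all genes with the labelled Hspa4-/- arrays higher.

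The other 5 subunits overlapped between the groups. Tcp1, the alpha subunit and founding member of the family, read 10.06, 10.28 and 10.15 on the arrays labelled Hspa4-/- and 10.39, 10.33 and 10.20 in wild type, and the array labelled Hspa4-/- replicate 2 lay among the wild-type arrays. Its difference was −0.14 (SE 0.08; limma, adjusted p = 0.564) on 6 arrays and −0.09 (SE 0.08; limma, adjusted p = 0.648) on 5. Cct7, the eta subunit, read 8.33, 8.13 and 8.29 against 8.32, 8.47 and 8.28, with differences of −0.11 (SE 0.08; limma, adjusted p = 0.701) and −0.15 (SE 0.09; limma, adjusted p = 0.479). For Cct7 it was the array labelled Hspa4-/- replicate 2 that lay lowest. Cct6a, the zeta subunit expressed in most tissues, read 7.72, 7.85 and 7.87 against 8.17, 7.78 and 7.91, with differences of −0.14 (SE 0.10; limma, adjusted p = 0.685) and −0.09 (SE 0.11; limma, adjusted p = 0.749). Its mean difference rested on wild-type replicate 1: without that array it was −0.03 on 6 arrays and turned to 0.018 on 5.

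Cct4, the delta subunit, and Cct5, the epsilon subunit, are both linked to inherited sensory neuropathy. Cct4 read 7.54, 7.69 and 7.53 on the arrays labelled Hspa4-/- and 7.62, 7.55 and 7.45 in wild type, with differences of 0.05 (SE 0.07; limma, adjusted p = 0.878) on 6 arrays and 0.07 (SE 0.08; limma, adjusted p = 0.750) on 5. Without the array labelled Hspa4-/- replicate 2 its sign turned, to −0.0013 on 6 arrays and −0.0097 on 5. Cct5 read 8.28, 8.53 and 8.50 against 8.42, 8.51 and 8.39, where the array labelled Hspa4-/- replicate 1 was the lowest of all 6. Its differences were −0.0056 (SE 0.08; limma, adjusted p = 0.992) and 0.07 (SE 0.07; limma, adjusted p = 0.691), and its sign on 6 arrays turned both without the array labelled Hspa4-/- replicate 1 (0.07) and without wild-type replicate 2 (0.03).

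**Figure D2:**
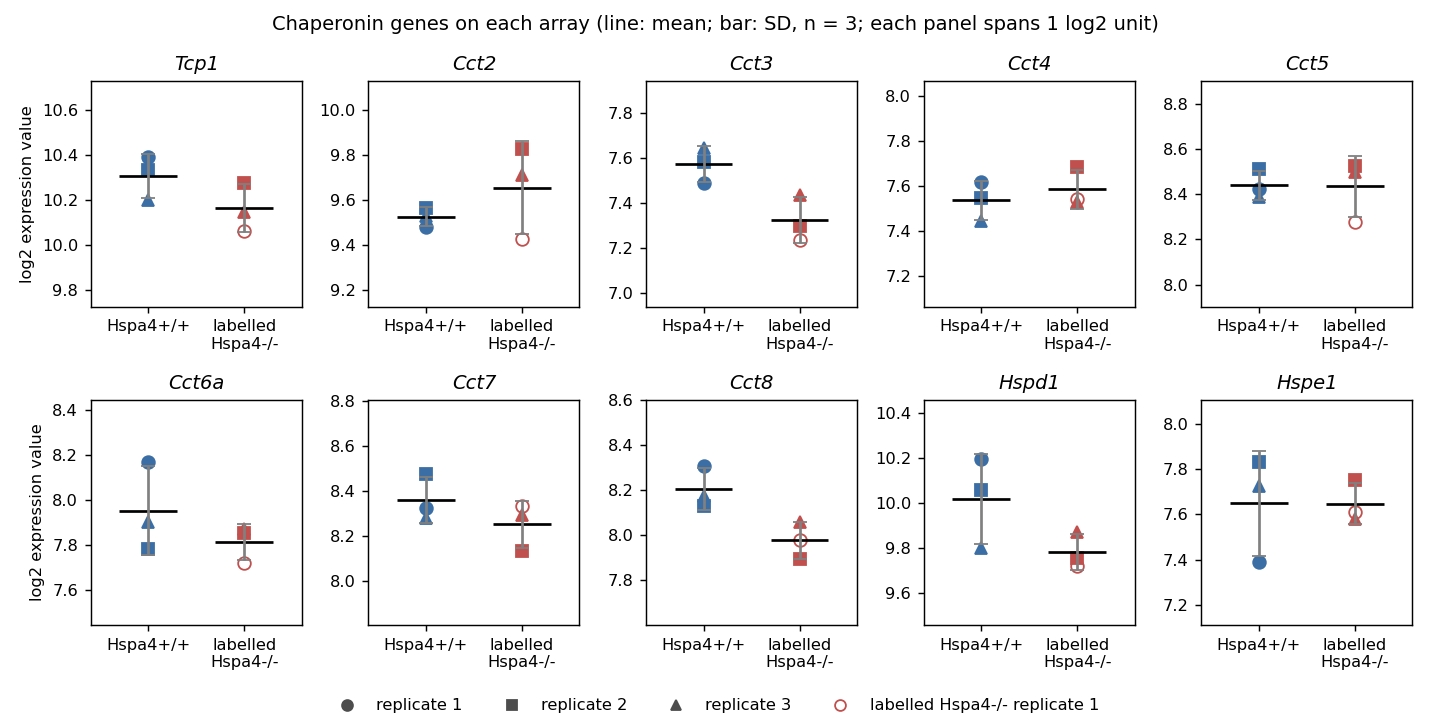
The log2 expression value (y axis, each panel spanning 1 log2 unit) of the 10 chaperonin genes on each array, by labelled genotype, with the mean and SD (n = 3). Cct3 and Cct8 are the panels without overlap, and the open circle is the array labelled Hspa4-/- replicate 1.

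The upstream sequences of Cct3 and Cct8 are shown because their groups did not overlap on 6 arrays, as in 9.07% of all genes with lower values. They are the 120 bases before the start in RefSeq (GRCm38.p6), with Cct3 at chr3:88297015-88297134 on the plus strand and Cct8 at chr16:87495870-87495989 on the minus strand. Capitals mark CCAAT or its reverse complement ATTGG in Cct3, and GGGCGG in Cct8.
Cct3: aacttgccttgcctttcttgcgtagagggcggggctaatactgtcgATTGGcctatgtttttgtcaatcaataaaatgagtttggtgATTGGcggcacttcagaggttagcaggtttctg
Cct8: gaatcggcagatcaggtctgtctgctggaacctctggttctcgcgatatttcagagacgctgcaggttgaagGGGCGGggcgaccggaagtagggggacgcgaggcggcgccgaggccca
Windows from 250 bases before to 50 after the start were found for 9 of the 10 genes, all but Cct4. GGGCGG, searched on both strands, was in a window of all 9 and in those of 38.2% of all 27025 genes. CCAAT on either strand was in 5 of the 9 (Cct3, Cct6a, Cct7, Tcp1 and Hspd1) and in 41.1% of all genes. Cct8 had no CCAAT in its window and Cct3 had 2. Whether these motifs bear on the differences was not tested.

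Of the mitochondrial pair, Hspd1 had a lower mean on the arrays labelled Hspa4-/- and Hspe1 a difference near 0, and neither passed. Hspd1, the Hsp60 barrel, read 9.72, 9.76 and 9.87 on the arrays labelled Hspa4-/- and 10.20, 10.06 and 9.80 in wild type. Wild-type replicate 3 lay below the array labelled Hspa4-/- replicate 3, so the groups overlapped. The means were 9.78 ± 0.08 (SD, n = 3) and 10.02 ± 0.20 (SD, n = 3), a difference of −0.23 (SE 0.10) or 1.18-fold lower (limma, adjusted p = 0.427), and on 5 arrays −0.20 (SE 0.11; limma, adjusted p = 0.445). Hspe1, the Hsp10 lid, read 7.61, 7.75 and 7.58 on the arrays labelled Hspa4-/- and 7.39, 7.83 and 7.73 in wild type, where replicate 1 was the lowest of all 6 arrays. Its means were 7.65 ± 0.09 (SD, n = 3) and 7.65 ± 0.23 (SD, n = 3), a difference of −0.00080 (SE 0.11, 95% interval −0.25 to 0.25; limma, adjusted p = 1.00), and on 5 arrays 0.018 (SE 0.13; limma, adjusted p = 0.965).

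Within each array the log2 value of Hspd1 minus that of Hspe1 was 2.11, 2.00 and 2.29 on the arrays labelled Hspa4-/- and 2.81, 2.23 and 2.07 in wild type. The group means of this quantity differed by −0.23 (exact two-sided permutation test, p = 0.5, n = 3 per group, where the smallest possible p is 0.1). Its SD was 0.39 among the wild-type arrays and 0.15 among the arrays labelled Hspa4-/-. Without the array labelled Hspa4-/- replicate 1 they differed by −0.22. With 3 arrays against 3 this test cannot reach 0.05, so its p says nothing on whether the 2 genes differed in response. RefSeq lists 7 pseudogenes named for Hspe1 and 23 for Hspd1, of which 0 have a probe set of their own here. Whether their transcripts add to either probe set was not tested.

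Hspd1 and Hspe1 lie head to head and share the stretch between their starts, which is shown because it lies upstream of both. The stretch is chr1:55087933-55088147 (RefSeq, GRCm38.p6), 215 bases printed on the plus strand towards Hspe1. The other Hspd1 start in RefSeq lies on the far side of the Hspe1 start. Capitals mark TTCNNGAANNTTCNNGAA, the 4-unit form of the heat shock element, to which the stress factor HSF1 is known to bind.
Hspd1-Hspe1: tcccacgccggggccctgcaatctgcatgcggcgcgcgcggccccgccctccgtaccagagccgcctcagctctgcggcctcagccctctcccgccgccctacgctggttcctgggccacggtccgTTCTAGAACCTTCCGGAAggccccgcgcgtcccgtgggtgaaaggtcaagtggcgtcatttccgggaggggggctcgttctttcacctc
The element lies from 89 to 72 bases before the Hspe1 start. It reads the same on both strands as a pattern, and it holds the 3-unit form GAANNTTCNNGAA on each strand. The 4-unit form was in the windows of 5 of 27025 genes (0.0185%), and the 3-unit form on either strand in those of 179 (0.662%). Of the 9 chaperonin genes with a window, these forms were found in Hspd1 and Hspe1 and in no CCT gene. The search took only exact matches of the fixed bases within the window, so imperfect or more distant elements would be missed.

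The other 3 genes with the 4-unit form were Chordc1, Arpc2 and Fam149a, which are named for their sequence and not for their values. Their elements are shown beside that of Hspe1 to compare the letters between the fixed bases, with 4 flanking bases where the window has them and the element in capitals. They lie at chr1:55088055-55088080, chr9:18292264-18292289, chr1:74236267-74236288 (all plus strand) and chr8:45382403-45382428 (minus strand) in GRCm38.p6, and that of Chordc1 lies just after its start.
Hspe1: tccgTTCTAGAACCTTCCGGAAggcc
Chordc1: aacgTTCGGGAAAATTCCTGAAgcag
Arpc2: TTCTGGAATATTCGCGAAaggg
Fam149a: tgagTTCCAGAACATTCTGGAAccga
These genes differed widely in their values. Chordc1, a co-chaperone of Hsp90, was 7.59, 7.39 and 7.46 on the arrays labelled Hspa4-/- and 8.35, 8.12 and 8.28 in wild type. It fell by 0.82 on the log2 scale on 5 arrays (SE 0.09; limma, adjusted p = 0.0127) and differed by −0.77 on 6 (SE 0.08; limma, adjusted p = 0.0773). Arpc2, a subunit of the actin-branching Arp2/3 complex, differed by 0.06 (SE 0.12; limma, adjusted p = 0.914) and by 0.19 (SE 0.09; limma, adjusted p = 0.348) on 6 and 5 arrays. Fam149a differed by −0.03 (SE 0.07; limma, adjusted p = 0.919) and −0.0086 (SE 0.07; limma, adjusted p = 0.971). The 3-unit form was in 90 measured genes outside the chaperonins, Chordc1, Arpc2 and Fam149a included. Of these, 58.9% were lower on 6 arrays, with a median of −0.03, near the 54.2% and −0.0094 of all genes. A match of letters is a description of the window and shows no binding.

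By array, the chaperonin genes were lowest on the array labelled Hspa4-/- replicate 1, the array on which Hspa4 was near wild type. It held the lowest of the 6 values in 6 of the 10 genes (Tcp1, Cct2, Cct3, Cct5, Cct6a and Hspd1), and it was the lowest array for 17.6% of all genes. It lay below the wild-type mean in 9 of the 10, with a median of −0.19, and in 48.2% of all genes. Replicates 2 and 3 of that label, on which Hspa4 was low, lay below the wild-type mean in 6 and 8 of the 10, with medians of −0.07 and −0.08, and in 53.7% and 57.7% of all genes, so that the count on replicate 2 was near the background. The lower values of the labelled group on 6 arrays thus included the array that goes against its label. Leaving it out moved the median of the 10 genes from −0.12 to −0.09. After quantile normalisation the medians were −0.13 on 6 arrays and −0.12 on 5. The deposited arrays differed in spread, with SDs of 1.20 on this array, 1.19 on wild-type replicate 3 and 1.27 on labelled Hspa4-/- replicate 3. All 10 genes had mean values between percentiles 75.1 and 98.4, and the shares of all genes are not matched for level. Whether the spread bears on the order of the arrays was not tested. All 3 arrays labelled Hspa4-/- were below the wild-type mean in 6 genes (Tcp1, Cct3, Cct6a, Cct7, Cct8 and Hspd1), and 24.3% of all genes behaved in this way. The highest value of a gene fell on wild-type replicate 1 in 4 genes and on the array labelled Hspa4-/- replicate 2 in 3.

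**Figure D3:**
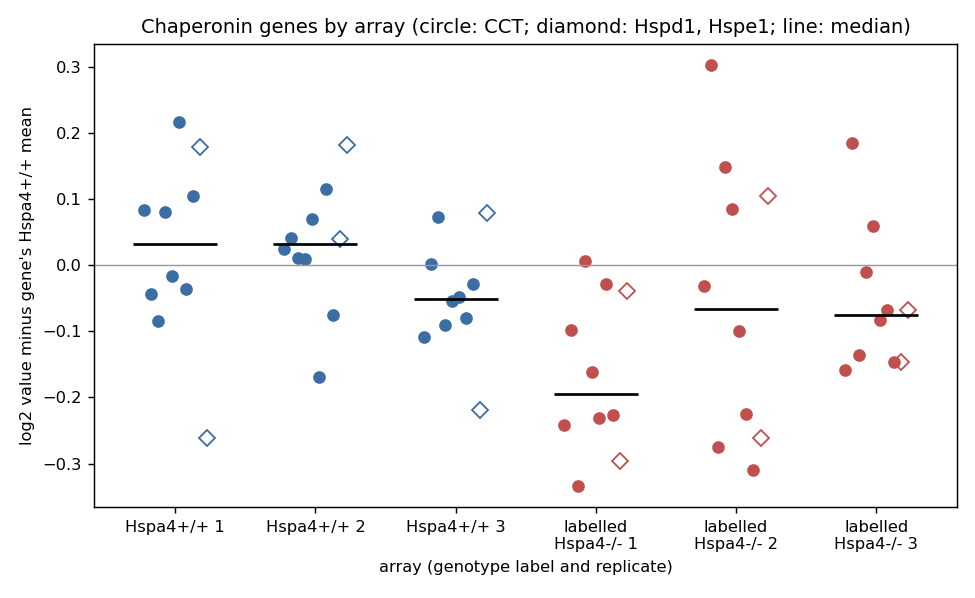
Each chaperonin gene's log2 value minus its Hspa4+/+ mean (y axis) on the 6 arrays (x axis), with CCT genes as circles, Hspd1 and Hspe1 as diamonds and the median of the 10 as a line. The median is lowest, at −0.19, on the array labelled Hspa4-/- replicate 1, and the genes spread over both sides of 0 on replicate 2.

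The likeness of profiles across the 6 arrays was measured after each gene was centred on its own mean. The subunit nearest to the mean profile of the 8 CCT genes was Tcp1, with a root mean square difference of 0.06 log2 units, and the farthest was Cct2, with 0.14. The nearest 5 named genes outside the chaperonins were Card6, Tmod4, Cbr4, Cog3 and Gria4, at 0.012 to 0.018. For the mean of Hspd1 and Hspe1 they were Ap1g1, Usp31, Esp1, Scyl2 and Pknox2, at 0.018 to 0.024. This measure favours genes that vary little, so it does not show how far the subunits share a profile.

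The partners that hand proteins to CCT were examined as lists, each described by its counts and median difference. Of the 6 prefoldin genes, 0 passed in either set, 4 were lower on 6 arrays and 5 on 5, and the medians were −0.12 and −0.11. The prefoldin subunit gene Vbp1 differed by −0.19 (SE 0.08), Pfdn2 by −0.24 (SE 0.11) and Pfdn6 by −0.15 (SE 0.08) on 6 arrays, and by −0.14, −0.20 and −0.13 on 5. Of the 4 phosducin-like genes, whose proteins bind CCT and modulate its folding cycle, 0 passed in either set. On 6 arrays Pdcl differed by −0.23 (SE 0.09), Pdcl2 by −0.12 (SE 0.08), Pdcl3 by 0.17 (SE 0.09) and Txndc9 by 0.01 (SE 0.10). On 5 arrays these were −0.18, −0.19, 0.23 and 0.10, so those of Pdcl2 and Txndc9 moved by over 1.5 times. The 5 chaperonin-like genes, which resemble CCT subunits in sequence, were all lower in both sets and 0 passed, with medians of −0.13 and −0.15. Of these the Bardet-Biedl syndrome genes Mkks (−0.21, SE 0.07) and Bbs10 (−0.17, SE 0.06) did not overlap between groups on 6 arrays, as 9.07% of all genes did not with lower values, and Cct8l1 differed by −0.13 (SE 0.08). On 5 arrays these differences were −0.23, −0.18 and −0.15. Some genes of these lists were low on the arrays: in mean value Cct8l1 lay at percentile 16.5 of all genes, Cct6b at 8.7 and the phosducin-like Pdcl2 at 3.5.

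The clients of CCT had medians above 0, unlike the subunits. Of 16 measured actin and tubulin genes, 12 were higher on 6 arrays and 11 on 5, with medians of 0.09 and 0.15. Over all genes, 54.2% were lower on 6 arrays and 56.7% on 5, with medians of −0.0094 and −0.018. Skeletal alpha-actin, Acta1, rose on 5 arrays (log2 difference 1.32, SE 0.18; limma, adjusted p = 0.0310) and was the 1 gene of the list that passed. It read 9.10, 10.25 and 9.85 on the arrays labelled Hspa4-/- and 8.56, 9.11 and 8.51 in wild type. The cytoplasmic actin gene Actb had a difference of 0.21 (SE 0.09; limma, adjusted p = 0.417), and that of the tubulin gene Tubb2a was 0.11 (SE 0.08; limma, adjusted p = 0.687) on 6 arrays. On 5 arrays Actb stood at 0.22 and Tubb2a, which moved by over 1.5 times, at 0.20. The 6 tubulin cofactor genes, which act on tubulin after CCT releases it, had 0 that passed in either set and medians of 0.03 and 0.04, with Arl2 at 0.20 (SE 0.08), Tbca at −0.24 (SE 0.11) and Tbcb at 0.14 (SE 0.07) on 6 arrays. On 5 arrays they were at 0.25, −0.11 and 0.11, so the value of Tbca was over 1.5 times smaller without the array labelled Hspa4-/- replicate 1. Of 11 genes for other CCT clients 0 passed in either set, 7 were higher on 6 arrays and 8 on 5, and the medians were 0.07 and 0.17. Among them the mTOR complex genes Mlst8 and Rptor differed by 0.25 (SE 0.08) and 0.27 (SE 0.10), and the cell cycle regulator Fzr1 by 0.24 (SE 0.10) on 6 arrays, and by 0.30, 0.33 and 0.24 on 5. Of 8 cell cycle genes 0 passed in either set and all 8 were lower in both, with medians of −0.09 and −0.09. In mean value they lay between percentiles 19.0 and 53.1 of all genes, with Top2a at 19.1 and Cdk1 at 23.4, so several were low on the arrays. Top2a differed by −0.18 (SE 0.07), Mki67 by −0.15 (SE 0.07) and Cdk1 by −0.10 (SE 0.06) on 6 arrays, and by −0.15, −0.10 and −0.09 on 5, with Mki67 moving by over 1.5 times.

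On the mitochondrial side, the proteases that degrade unfolded matrix and inner membrane proteins were all on the lower side. All 8 were lower in both sets, with medians of −0.11 and −0.15, and 0 passed. The inner membrane protease genes Yme1l1 and Oma1 differed by −0.34 (SE 0.07; limma, adjusted p = 0.210) and −0.35 (SE 0.09; limma, adjusted p = 0.229) on 6 arrays, and by −0.35 (SE 0.08; limma, adjusted p = 0.0999) and −0.32 (SE 0.10; limma, adjusted p = 0.178) on 5. Yme1l1 read 9.05, 9.04 and 8.98 on the arrays labelled Hspa4-/- and 9.42, 9.24 and 9.42 in wild type, with no overlap, as in 9.07% of all genes with lower values. Clpx, which unfolds substrates for the matrix protease Clpp, differed by −0.16 (SE 0.08) on 6 arrays and −0.15 on 5.

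The mitochondrial Hsp70 system, which receives imported proteins before Hsp60, had 0 of 7 genes that passed in either set, 5 lower on 6 arrays and 4 on 5, and medians of −0.04 and −0.05. Its nucleotide exchange factor genes went both ways, with Grpel2 at −0.22 (SE 0.08) and Grpel1 at 0.11 (SE 0.09) on 6 arrays, and its iron-sulphur co-chaperone gene Hscb stood at −0.09 (SE 0.06). On 5 arrays the 3 were at −0.27, 0.17 and −0.05, and those of Grpel1 and Hscb moved by over 1.5 times. Of 11 measured import genes 0 passed in either set and 7 were higher in both, with medians of 0.07 and 0.04. The outer membrane pore gene Tomm40 differed by 0.34 (SE 0.12), the receptor gene Tomm70a by −0.15 (SE 0.07) and the inner membrane translocase gene Timm17a by −0.12 (SE 0.07) on 6 arrays, and by 0.40, −0.10 and −0.13 on 5, with Tomm70a moving by over 1.5 times. Of the 4 transcription factors linked to mitochondrial stress 0 passed in either set, with Cebpb at 0.16 (SE 0.10), Ddit3 at 0.07 (SE 0.07), Atf4 at 0.06 (SE 0.10) and Atf5 at −0.01 (SE 0.09) on 6 arrays. On 5 arrays they were at 0.16, 0.08, 0.06 and −0.10, so Atf5 moved by over 1.5 times.

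Among the lists of related genes, the cytosolic heat shock genes had the lowest median, −0.16 on 6 arrays and −0.24 on 5. Of 12 measured genes 10 were lower in both sets, 0 passed on 6 arrays and 2 fell on 5, namely Chordc1 and the Hsp110 gene Hsph1 (−0.996, SE 0.08; limma, adjusted p = 0.00334). Hsph1 read 7.31, 6.62 and 6.66 on the arrays labelled Hspa4-/- and 7.74, 7.53 and 7.64 in wild type. Stip1, the adaptor between Hsp70 and Hsp90, differed by −0.27 (SE 0.07; limma, adjusted p = 0.248) on 6 arrays and −0.28 (SE 0.08; limma, adjusted p = 0.172) on 5. Chordc1 and Hsph1 were also the 2 of the 10 heat shock genes with a window that held an exact 3-unit element, which Hspd1 and Hspe1 share. Hspd1 and Hspe1 differed by −0.23 and −0.00080 on 6 arrays. Of the 90 measured genes outside the chaperonins with this element, Chordc1 and Hsph1 included, 58.9% were lower on 6 arrays, beside 54.2% of all genes. Whether the element bears on any of these values was not tested.

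**Figure D4:**
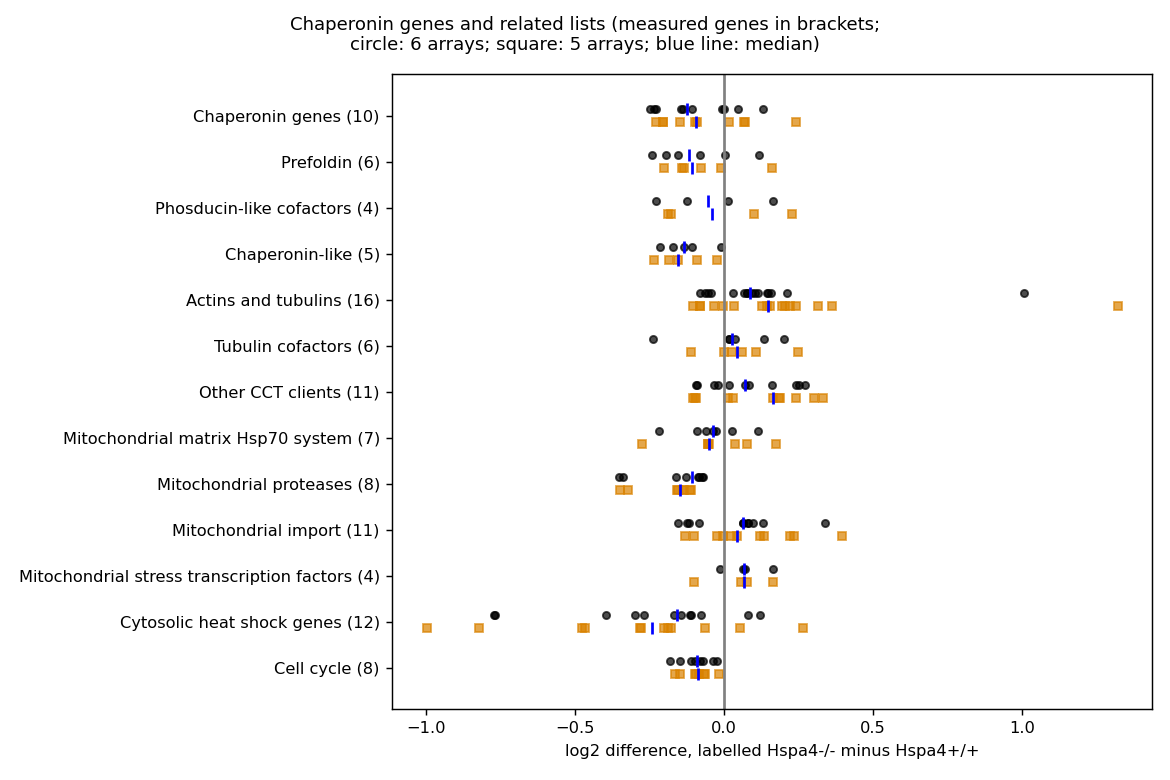
Log2 differences (x axis), labelled Hspa4-/- minus Hspa4+/+, of the chaperonin genes and of the related lists (y axis, measured genes in brackets), on 6 arrays (circles) and 5 arrays (squares), with the median of each list as a line. The chaperonin medians are −0.12 and −0.09, while the actin and tubulin medians are 0.09 and 0.15.

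On 6 arrays the summed markers of 4 of 10 cell types did not overlap between the labelled groups. These sums include the array labelled Hspa4-/- replicate 1. Over all single genes, 9.07% did not overlap with lower values and 1231 of 20239 with higher values, and no share was computed for sums. Of the single markers, 0 passed on 6 arrays and 1 on 5. In bulk tissue, fewer cells of a type and less RNA per cell cannot be told apart. Summed on the linear scale, the 8 ventricular cardiomyocyte markers ran from 43744 to 44748 on the arrays labelled Hspa4-/- and from 40067 to 42833 in wild type. The 4 atrial markers ran from 989 to 3161 against 615 to 812, but the stress gene Nppa held most of this sum, and without it the other 3 overlapped, from 290.4 to 354 against 254 to 319.8. The 5 skeletal muscle markers ran from 1604 to 1689 against 1364 to 1481, most of it from Ckm, which heart muscle also expresses, and without it the other 4 overlapped, from 231 to 236 against 224 to 253. The 5 macrophage markers were lower, from 694 to 713 against 767 to 774. The sums for fibroblasts, endothelial cells, smooth muscle and pericytes, lymphocytes and neutrophils, erythroid cells and adipocytes overlapped between the groups on 6 arrays. On labelled Hspa4-/- replicates 2 and 3 the smooth muscle and pericyte sums, 5171 and 5729, lay above the wild-type range of 3939 to 4627. The marker that passed was Nppa, on 5 arrays (log2 difference 2.32; limma, adjusted p = 0.0127). The part of these shifts in the chaperonin values was not tested.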

How the data were processed

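The deposited table held log2 expression values, 1 for each probe set and array, which the authors made, per the submitters' processing notes, in R 2.13.0 with affy. The sources used here name no background correction, normalisation or summary method. Of 21225 probe sets, 20239 carried 1 gene symbol, 0 several and 986 none, and each symbol had 1 probe set. Values were used as deposited. Array means lay between 6.76 and 6.77 and SDs between 1.19 and 1.27. No background measure was used, and precision is limited by the number of arrays.

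Groups came from the labels, which give 3 mice per genotype, and each array was read as 1 mouse. A 2-group limma 3.58.1 model (R 4.3.3, lmFit and eBayes) was fitted over 20239 genes with Benjamini-Hochberg adjustment and a threshold of 0.05. The code was first run on simulated data with known changes. Those changes were far larger than the chaperonin differences, so that run does not show how well differences of their size are found. It was run on 6 arrays and on the 5 left without the array labelled Hspa4-/- replicate 1. A difference is the labelled Hspa4-/- mean minus the wild-type mean. The members, the lists and the alternatives were chosen with earlier results of these data known. All 10 chaperonin genes were named, with the 3 genes of smallest p on 6 arrays in each related list (all of a list of 4). Genes of the lists without a probe set were not analysed here. Replicate numbers were not treated as pairs in the main fit. Same-numbered arrays had deviations from their group means that correlated at −0.17, 0.09 and −0.25 over genes. For arrays with unlike numbers the correlations ran from −0.16 to 0.33. With 3 arrays per group, whose deviations sum to 0, these values cannot settle whether the arrays were paired. Promoter windows came from RefSeq (GRCm38.p6), and genes were matched by symbol.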

Additional observations from a re-analysis of the deposited data

How the results depend on the processing

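The count of chaperonin genes that passed was 0 in all 13 alternatives on 6 arrays and in all 12 on 5 arrays, which covered 2 normalisations, 2 filters on low values, array weights, a trended and robust prior, a replicate block and each array left out. The replicate block likewise gave 0 chaperonin genes in both sets. The count of lower members ran from 6 to 9 on 6 arrays and from 6 to 8 on 5. The median of the 10 ran from −0.15 to −0.09 on 6 arrays and from −0.13 to −0.066 on 5, with both ends reached by leaving out single arrays (−0.13 without wild-type replicate 3). Tcp1, Cct3, Cct7, Cct8 and Hspd1 were lower, and Cct2 higher, in every alternative of both sets.

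Signs turned in 9 of 130 values on 6 arrays and 7 of 120 on 5. On 6 arrays, array weights gave 0.048 for Cct5 and 0.10 for Hspe1. Leaving out single arrays turned Cct5 (range −0.051 to 0.073), Hspe1 (−0.13 to 0.090) and Cct4 (−0.0013 to 0.089). On 5 arrays, Hspe1 was −0.041 with quantile normalisation and −0.11 with the replicate block, and the block gave 0.018 for Cct6a. In that set wild-type replicate 1 is alone in its block, so the block gives the same differences as leaving that array out. The turned signs of Hspe1 and Cct6a are therefore counted under both alternatives, which are not separate checks of the difference. Leaving out single arrays gave ranges of −0.11 to 0.11 for Hspe1, −0.18 to 0.018 for Cct6a and −0.0097 to 0.15 for Cct4.

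The count over all genes moved far more. On 6 arrays it was 2 with either filter, 2 with the replicate block and 115 with array weights, and from 0 to 112 with single arrays left out (89 without the array labelled Hspa4-/- replicate 1, 112 without wild-type replicate 2). On 5 arrays, against 89, it was 36 with subtracted medians, 156 and 167 with the filters, 321 with array weights and 134 with the replicate block, and from 2 to 875 with single arrays left out. The cause was not tested. Fits with fewer arrays have fewer residual degrees of freedom. Where 1 array labelled Hspa4-/- remained, its spread was taken from the wild-type arrays.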
